A study of Sus scrofa with 15 samples.

Results

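The comparison of soy formula with sow milk rested on 6 of the 15 testis libraries of the series, 3 from piglets fed soy formula (Soy) and 3 from piglets fed sow milk (Sow). The libraries were taken by the diet in the column names of the deposited table. All piglets were males from sows kept on a soy-free diet, suckled for 2 days and were then housed singly, and testes were frozen on postnatal day 21. Sow piglets drank commercially obtained sow milk from a bowl, and Soy piglets drank a soy-based formula whose protein was soy protein isolate, adapted to the needs of the pig. Of the remaining libraries, 3 came from piglets given a cow's milk-based formula (Milk), 3 from piglets given the same formula with 17-beta-estradiol (M + E2), and 3 from piglets given it with genistein at 84 mg/L (M + G). Soy and Sow differed in the whole diet, so isoflavones and formula feeding as such cannot be told apart between them, and values of the Milk group are set beside the results for that reason. The labels name 3 samples per diet without saying that each is a separate piglet, so p-values measure the spread between these samples. In the columns, 1 Sow and 1 Soy library carry no number. Values are given in the order unnumbered, 2, 3 for Sow and Soy and 1, 2, 3 for the formulas with cow's milk.

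The testis of a suckling piglet holds cords of Sertoli cells and early germ cells, wrapped by contractile peritubular myoid cells, with Leydig cells and vessels between the cords. Leydig cells of the pig make androgens and, through aromatase, large amounts of estrogen. Soy formula carries genistein and daidzein, isoflavones that bind estrogen receptors weakly, and the comparison addresses whether a testis exposed to them at this age differs in gene expression from one fed on sow milk.

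Gene counts of the 6 libraries totalled 7937385 to 9017628 reads each, with medians of 8740828 in Sow and 8404443 in Soy. Levels are CPM, reads of a gene relative to all counted reads of its library, after TMM scaling, a normalization of library composition by edgeR, and 15328 of the 30476 genes in the table passed the count filter. Some libraries stood apart. Over all tested genes, Sow 2 and Soy 3 had the lowest correlation of log2 CPM among the 6 libraries (r = 0.865), and Soy unnumbered had r = 0.977 and r = 0.980 with Sow unnumbered and Sow 3 but r = 0.938 with Soy 3. Within its own group, Sow 2 had r = 0.972 with Sow unnumbered and r = 0.968 with Sow 3. The study left Sow 2 out, and the counts of calls and the called genes are therefore given with and without it. For lists and other genes, a value without a library is given for some of those that moved. Defining markers of Leydig cells summed to between 19787 and 20325 CPM in Sow and between 18262 and 25019 in Soy. Those of Sertoli cells summed to between 1357 and 1850 in Sow and between 1116 and 1658 in Soy. Those of duct epithelium summed to no more than 3.63 in any of the 6 libraries. That sum rests on 2 of the 4 duct markers, since KRT19 and PAX8 have no entry by symbol. Adipocyte markers summed to 5.24 in Soy 3 and to between 1.31 and 2.19 in the rest of the 6 libraries. In bulk tissue, fewer cells of a type and less RNA per cell cannot be told apart.

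Few genes passed the test, although many leaned one way. A gene was called when its adjusted p was at most 0.05 and its levels differed 2-fold or more (edgeR's quasi-likelihood F test, all 5 groups in 1 fit, Benjamini-Hochberg adjustment over all tested genes). By this rule 4 genes differed between Soy and Sow, 0.0261% of those tested, with 1 higher in Soy (0.00652%) and 3 lower (0.0196%). Without Sow 2 there were 2 genes, 0.0128% of 15634, both lower. At an unadjusted p under 0.05 there were 5434 genes (35.5%), of which 2597 were higher (16.9%) and 2837 lower (18.5%), and without Sow 2 there were 2344 (15%), 1177 higher (7.53%) and 1167 lower (7.46%). Adjusted values crowded just above the threshold, with 5 genes at 0.06 or less and 1210 at 0.07 or less. All 3 Soy libraries lay above all 3 Sow libraries at 2560 genes (16.7%) and below them at 2662 (17.4%), 34.1% in either direction, which was 37.3% without Sow 2. These shares are the background for the counts in the gene lists that follow. A single library decided how many genes passed, since leaving out Soy unnumbered raised the count from 4 to 2498, and leaving out Milk 3, a library of neither group that enters the shared fit and filter, raised it to 1103.

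Of the genes that fell, PHYHIPL (ENSSSCG00000039215) lies on chromosome 14 between positions 62525915 and 62630383 of Sscrofa11.1, by its symbol in the RefSeq annotation. Its level was 55.4, 44.1 and 25.2 CPM in Sow and 1.31, 2.19 and 1.60 CPM in Soy. The lowest Sow library thus lay far above the highest Soy library, with means of 41.6 ± 15.3 (SD, n = 3) and 1.70 ± 0.449 CPM. The fitted log2 fold change was −4.59 ± 0.51 (SE), with an adjusted p of 0.00211. PHYHIPL was as low on the other formulas, at 1.03, 3.10 and 1.99 CPM in Milk, 2.89, 0.639 and 0.958 CPM in M + E2 and 3.47, 1.57 and 1.45 CPM in M + G. Without Sow 2 its change was −4.56 (adjusted p = 0.0115 by the same test).

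The gene known only as ENSSSCG00000048477 had 24.6, 19.0 and 10.3 CPM in Sow and 1.18, 0.658 and 0.570 CPM in Soy. It was called with a log2 fold change of −4.48 ± 0.42 (adjusted p = 0.000577) and, like PHYHIPL, it was low in every formula group, with a mean of 0.759 CPM in Milk. The call held without Sow 2 (adjusted p = 0.00385).

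PDLIM3 (ENSSSCG00000015796, chromosome 15, 46516178 to 46546658), which encodes a PDZ and LIM domain protein of the actin cytoskeleton in muscle, had 38.7, 58.6 and 57.5 CPM in Sow and 19.2, 22.5 and 17.8 CPM in Soy. The groups did not overlap, and the change was −1.38 ± 0.19 on the log2 scale (adjusted p = 0.0202). Milk had 16.9, 24.3 and 20.2 CPM. Without Sow 2 the gene missed the threshold (log2 fold change −1.29, adjusted p = 0.0913).

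The gene that rose was ENSSSCG00000018062, which the study names MT-TV, a transfer RNA gene of the mitochondrial genome. It had 8, 16 and 17 reads in Sow unnumbered, Sow 2 and Sow 3, and 86, 108 and 104 reads in the corresponding Soy libraries. In CPM these were 1.08, 2.34 and 2.04 against 11.3, 11.8 and 11.9, a log2 fold change of 2.68 ± 0.39 (adjusted p = 0.0260). None of the 12 libraries outside Soy had more than 25 reads, and the Milk libraries had 21, 6 and 9. Of the 4 called genes, it was the single one whose Milk libraries overlapped with those of Sow. Without Sow 2 it missed the threshold (log2 fold change 2.88, adjusted p = 0.119). The plot of the 4 called genes by diet shows both patterns.

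**Figure D1:**
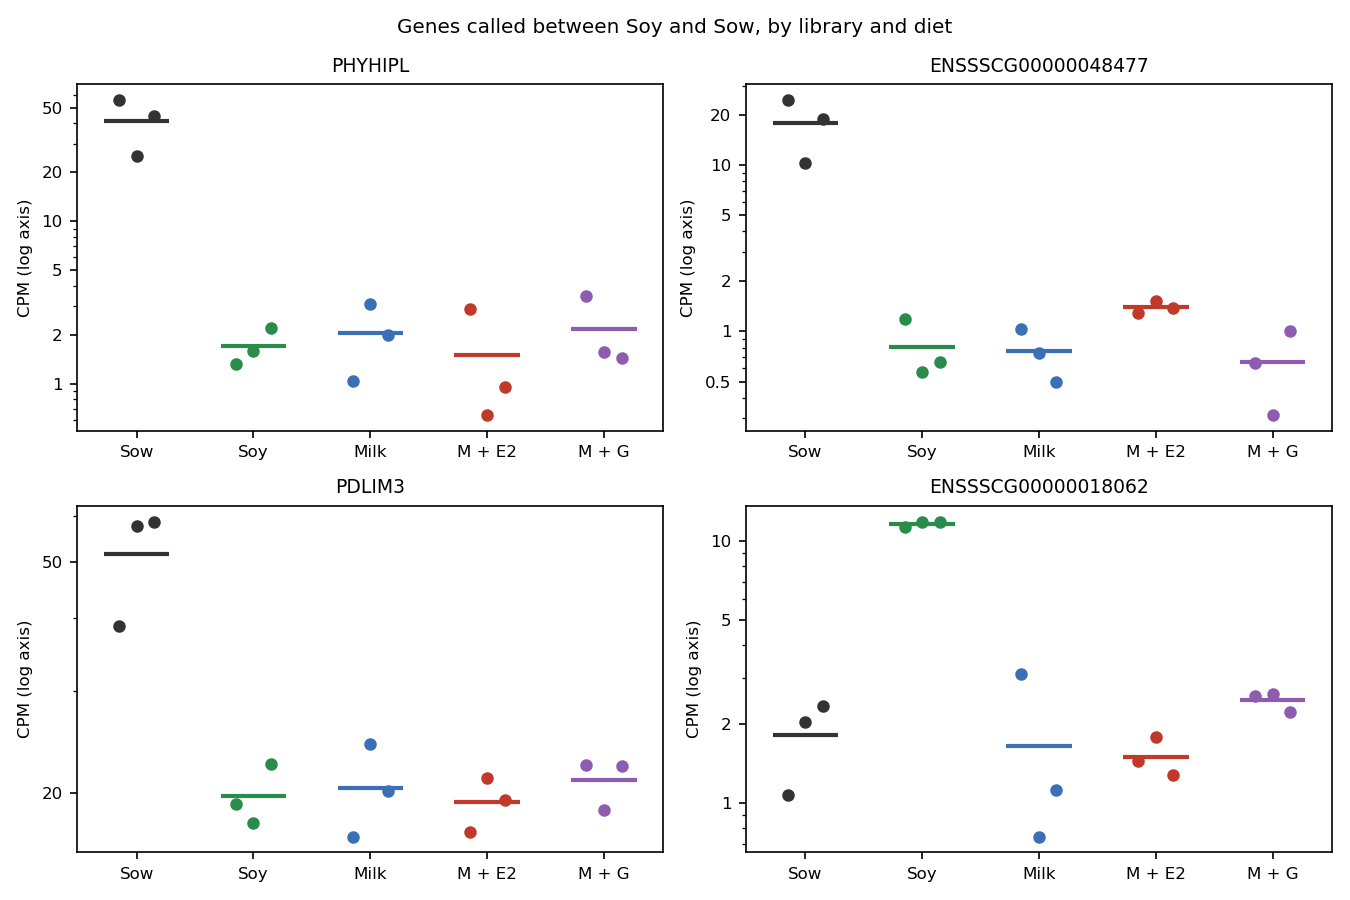
CPM (log axis) of the 4 genes called between Soy and Sow in each of the 15 libraries, by diet; points are libraries and lines are group means. PHYHIPL, ENSSSCG00000048477 and PDLIM3 are high in the 3 Sow libraries and low in all 4 formula groups, whereas ENSSSCG00000018062 is high in the 3 Soy libraries, at 11.3 to 11.9 CPM, and at most 3.10 CPM elsewhere.

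Further genes came close to the threshold. Among those with a symbol whose libraries did not overlap, the genes described here come from the 10 with the smallest p above Sow and the 10 below it, and except PHYHIPL and PDLIM3 none was called.

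GUSB, the lysosomal beta-glucuronidase that removes glucuronic acid from conjugates, had 125, 106 and 127 CPM in Sow and 228, 647 and 633 CPM in Soy. Every Soy library exceeded every Sow library, and the Soy libraries spread nearly as widely among themselves. Its log2 fold change was 2.08 ± 0.33 (adjusted p = 0.0579), and in Milk it was 309, 231 and 253 CPM.

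CD96, a receptor of T and NK lymphocytes, had 1.21, 2.19 and 1.68 CPM in Sow and 15.4, 33.4 and 23.7 CPM in Soy. That is a log2 fold change of 3.83 ± 0.68 (adjusted p = 0.0626), with Milk between the groups at 10.6, 5.83 and 7.85 CPM. The 21 T and NK cell genes of the table together summed to 91.9, 83.1 and 84.9 CPM in Sow and 114, 83.2 and 83.1 CPM in Soy. These sums overlapped, but CD247, a chain of the T cell receptor, held much of them. It had 29.6, 19.4 and 21.0 CPM in Sow and 58.6, 45.3 and 33.4 CPM in Soy. The defining T and NK markers, without CD247, summed to 14.3, 17.5 and 16.1 CPM in Sow and 14.3, 6.91 and 7.75 CPM in Soy.

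The other genes above Sow had smaller fitted differences. LINGO1, a membrane protein of neurons, had 6.05, 2.04 and 3.00 CPM in Sow and 13.8, 11.7 and 12.4 CPM in Soy. CDK18, a cyclin-dependent kinase, had 9.69, 9.20 and 10.7 CPM against 18.0, 26.5 and 37.9. CDK9, the kinase that releases paused RNA polymerase, had 58.9, 49.9 and 77.2 CPM against 105, 116 and 131. CDC42EP1, an effector of the small GTPase CDC42, CD82, a tetraspanin, GPRC5C, an orphan receptor, and SMAD7, an inhibitor of TGF-beta signalling, had log2 fold changes of 1.13, 0.68, 0.95 and 1.11. Adjusted p-values of these 7 genes in the quasi-likelihood test lay between 0.0626 and 0.0651.

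Below Sow, S100A12, a calcium-binding protein of neutrophils, had 6.19, 28.3 and 5.87 CPM in Sow and 0.789, 0.329 and 0.228 CPM in Soy. Sow 2 held most of this signal, and without it the log2 fold change moved from −4.89 to −3.75. LRRC39, a muscle protein, had 210, 349 and 163 CPM in Sow and 74.9, 60.6 and 35.6 CPM in Soy, a log2 fold change of −2.08 ± 0.38. PLBD1, a phospholipase B-like protein, had 127, 172 and 136 CPM against 58.8, 65.3 and 50.4. COCH, an extracellular matrix protein, PCDH18, a protocadherin, SLF1, a factor in DNA repair, and TAGLN3, a relative of transgelin, had log2 fold changes of −1.88, −0.95, −1.24 and −1.35. Each of these 7 genes had an adjusted p of 0.0626 in the quasi-likelihood test, and in each the 3 Milk libraries also lay below all Sow libraries.

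The study's own test, edgeR's exact test on the pair of groups, called more genes. It gave 771 on the 6 libraries (5.38% of 14329), 374 higher and 397 lower, and 54 without Sow 2 (0.367% of 14732), 16 higher and 38 lower. The lists shared 46 genes, 15 higher and 31 lower in Soy and in the same direction in both, which is 5.97% of the longer list and 85.2% of the shorter. In the quasi-likelihood test the adjusted p of these 46 genes ran from 0.000577 to 0.141. At 33 of the 46 the Milk libraries lay on the same side of all Sow libraries as the Soy libraries did. The same Sow libraries picked these genes, which favours such agreement, and the share over all genes is not given. This count therefore does not show a shared change. The same limit holds wherever Milk is set beside Sow at genes chosen by their Soy and Sow values. Besides genes already given, those lower in Soy included IFI6 and ISG12(A), both induced by interferon, at 267, 208 and 195 against 59.0, 42.8 and 37.7 CPM and at 168, 139 and 150 against 61.0, 36.7 and 30.8 CPM.

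Enzymes and secreted proteins were also among the 31 lower genes. FMO1, a flavin monooxygenase that oxidizes foreign compounds, had 511, 312 and 401 CPM in Sow and 138, 99.6 and 85.2 CPM in Soy. SPP1, the secreted glycoprotein osteopontin, had 44.3, 57.2 and 48.4 CPM against 14.2, 15.5 and 13.0. KLK1, tissue kallikrein, had 35.9, 22.1 and 18.3 CPM against 5.52, 2.30 and 1.71. NR1H4, the bile acid receptor, and GRB14, an adaptor that dampens insulin receptor signalling, had fitted log2 fold changes of −2.04 ± 0.42 and −1.63 ± 0.31.

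Among the 15 higher genes, TNR, a matrix glycoprotein of the nervous system, and GRIN2A and GRIN2C, subunits of the NMDA glutamate receptor, had log2 fold changes of 1.55, 1.15 and 1.32. GRIN2A had 14.9, 12.7 and 14.1 CPM in Sow and 30.9, 31.0 and 31.0 CPM in Soy. Its Milk libraries were spread on both sides of Sow, at 17.3, 7.94 and 50.7 CPM. The heat map of these genes shows these differences by library.

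**Figure D2:**
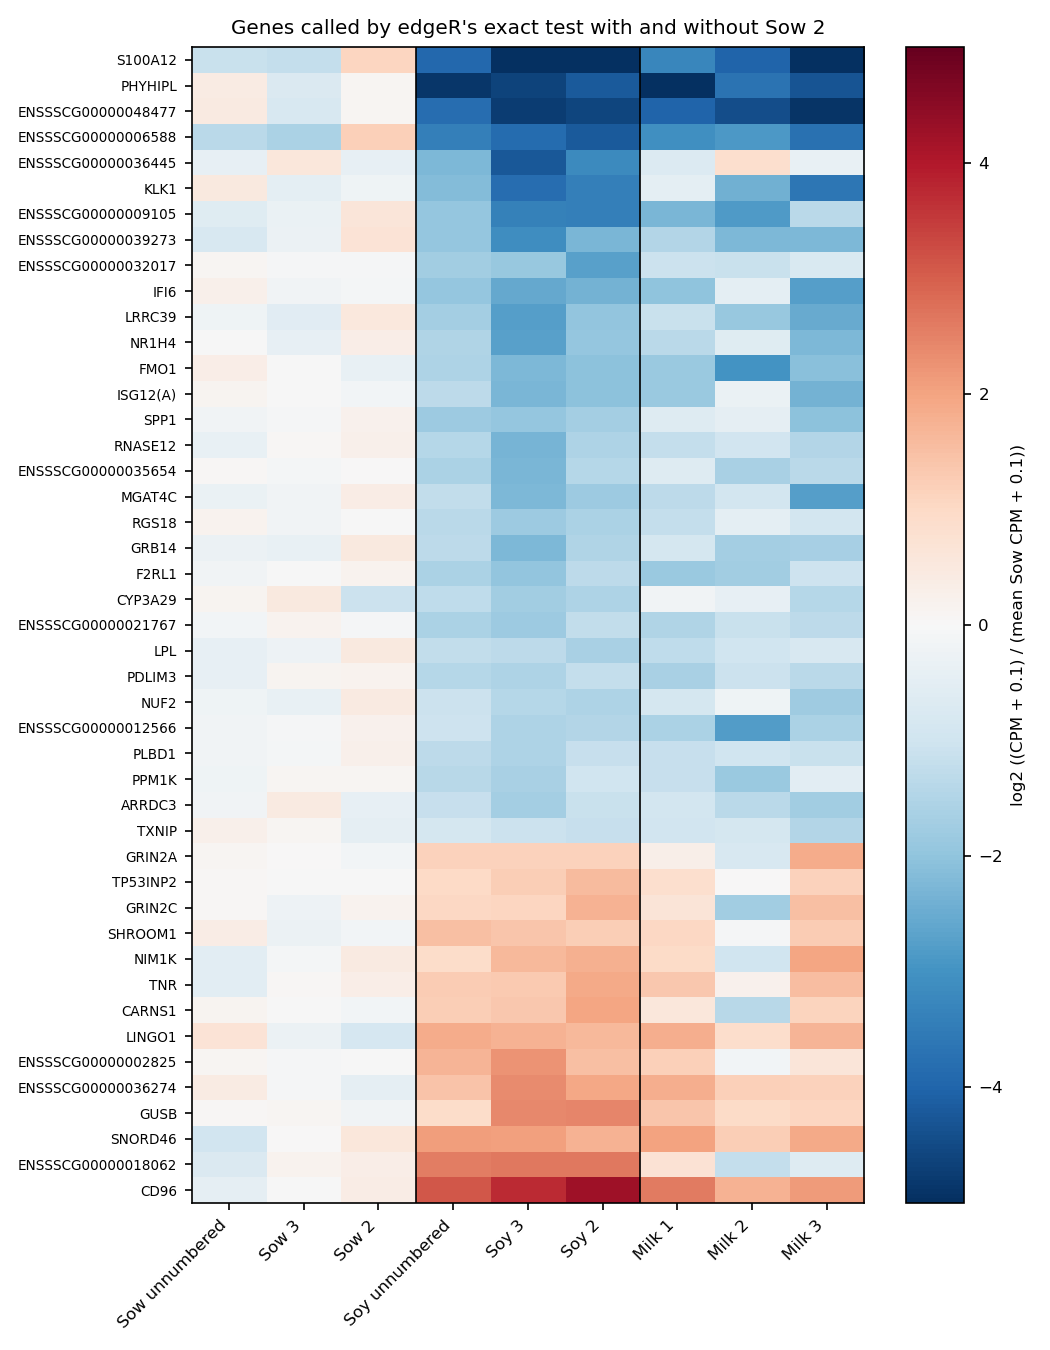
Colours give log2 of (CPM + 0.1) over (mean Sow CPM + 0.1) for 45 of the 46 genes called by edgeR's exact test both with and without Sow 2, in the 9 libraries of Sow, Soy and Milk (red higher, blue lower, the colour scale ends at a log2 ratio of 5 in either direction). Over all 46 genes, the Milk libraries of 33 lie on the same side of all Sow libraries as the Soy libraries, which the choice of genes by these Sow libraries favours.

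Genes of steroid synthesis showed no call. STAR, which carries cholesterol into mitochondria, had 3888, 3801 and 3089 CPM in Sow and 4596, 4492 and 3533 CPM in Soy, and the groups overlapped. Its log2 fold change was 0.23 with a 95% interval from −0.53 to 0.99 (adjusted p = 0.662, edgeR). CYP11A1, the side chain cleavage enzyme, had 3075, 3198 and 2944 CPM in Sow and 2411, 2990 and 1972 CPM in Soy, a change of −0.32 with an interval from −0.98 to 0.34. CYP17A1, which makes androgen precursors, had 7551, 6029 and 6784 CPM against 7213, 10985 and 8576, a change of 0.39 with an interval from −0.32 to 1.10. CYP19A1, aromatase, had 3818, 5243 and 4337 CPM against 4268, 4557 and 3459, a change of −0.13 with an interval from −0.80 to 0.55. The pig carries near-identical copies of aromatase, so reads of these copies may not be separated. In this fit the intervals of STAR, CYP11A1 and CYP19A1 exclude a 2-fold change in either direction, by a small margin for STAR and CYP11A1. That of CYP17A1 includes a 2-fold increase. Intervals with a library left out are not given, so the exclusion holds for this fit only.

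Other members of the Leydig and steroidogenic list spread in both directions. CYB5A, the cytochrome b5 that aids CYP17A1, had 12281, 23992 and 10433 CPM in Sow and 11064, 6845 and 3522 CPM in Soy, so that Soy unnumbered lay among the Sow libraries. SRD5A1, a 5-alpha reductase, had 129, 101 and 117 CPM in Sow and 182, 292 and 268 CPM in Soy, a log2 fold change of 1.10 ± 0.38 (adjusted p = 0.0775 by the same test). INSL3, the peptide hormone of Leydig cells, had 5303, 6148 and 6555 CPM against 4856, 6089 and 3784. Of 19 tested members 8 had a positive and 11 a negative fitted change, 4 lay above and 2 below Sow without overlap (21.1% and 10.5%), and the median log2 fold change was −0.06, against 0.03 over all genes.

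**Figure D3:**
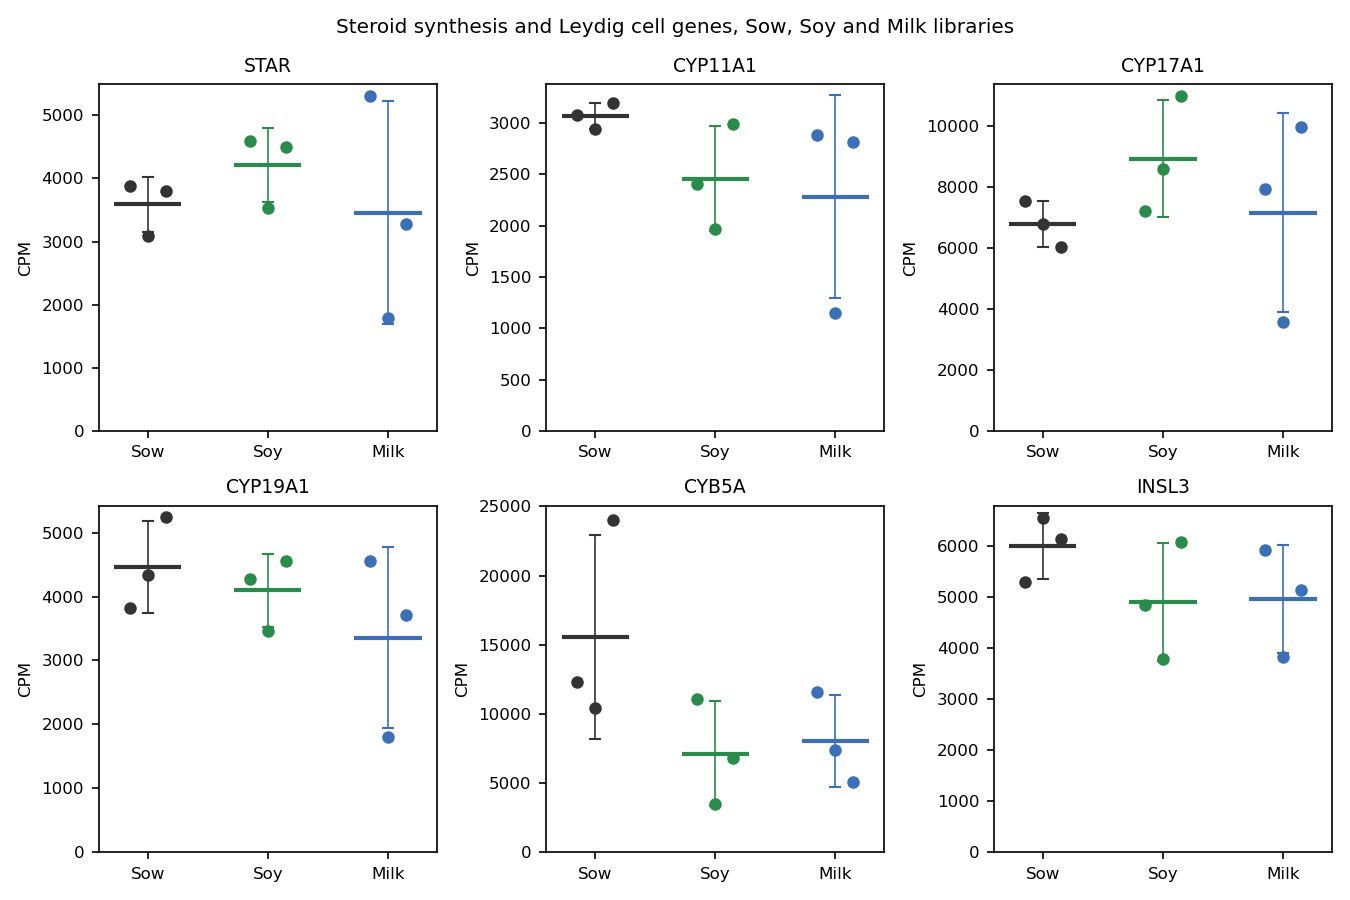
CPM of 6 genes of steroid synthesis and Leydig cells in the Sow, Soy and Milk libraries; points are libraries, horizontal lines group means and bars 1 SD (n = 3). Soy and Sow libraries overlap at all 6 genes, and CYB5A has its highest value, 23992 CPM, in Sow 2.

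Genes of the estrogen receptors and genes known to respond to estrogen had a median log2 fold change of 0.13. Of 21 tested, 14 were higher and 7 lower by fitted change, 7 lay above Sow (33.3%) and 1 below (4.76%), and none was called. CCND1, cyclin D1, had 20.7, 20.3 and 30.3 CPM in Sow and 32.9, 38.6 and 73.7 CPM in Soy. IGFBP4, a binding protein of insulin-like growth factors, had 295, 303 and 331 CPM against 428, 391 and 492. Both were also above Sow in all 3 Milk libraries, at 44.2, 83.6 and 43.3 CPM for CCND1 and 423, 482 and 481 CPM for IGFBP4.

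Sertoli cell and germ cell genes had medians of −0.01 and 0.00. Of 21 Sertoli genes 1 lay above and 4 below Sow (4.76% and 19.0%), and of 16 germ cell genes 2 lay above and 1 below (12.5% and 6.25%). KITLG, the Sertoli cell ligand of the germ cell receptor KIT, had 96.9, 155 and 112 CPM in Sow and 69.7, 68.5 and 65.5 CPM in Soy, a log2 fold change of −0.84 ± 0.20 (adjusted p = 0.0651). NR0B1, a nuclear receptor that represses steroid synthesis, had 12.5, 19.3 and 15.5 CPM against 9.07, 4.39 and 3.42, a log2 fold change of −1.49 ± 0.35 with the same adjusted p. INHA, the inhibin alpha subunit, had 988, 944 and 971 CPM against 964, 882 and 546. GATA1, the Sertoli gene above Sow, had few reads, with 2, 1 and 2 in Sow and 6, 11 and 9 in Soy. Among germ cell genes, ID4 lay above Sow with a log2 fold change of 2.22 and its highest level in Soy 3. MAEL and SYCP3 had changes of −1.19 and −1.42 with overlapping groups. DAZL has no entry by symbol.

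Genes of the vessels and tubule wall mostly had a positive fitted change, while fewer separated Soy from Sow. All 12 peritubular myoid genes had a positive fitted change, with a median of 1.44, and 5 lay above all Sow libraries (41.7%). MYH11, the smooth muscle myosin heavy chain, had 17.6, 7.74 and 35.7 CPM in Sow and 38.5, 75.6 and 975 CPM in Soy. Soy 3 thus carried most of the myoid signal, and the defining myoid markers summed to 2888 CPM there and to between 295 and 409 CPM in the other Soy libraries, against 159 to 380 CPM in Sow. Without Soy 3 the median of the list dropped to 0.51, and without Soy 3 and Sow 2 to 0.32. Its part in the differences of these lists was not tested. Milk 2 had a similar level, with a list sum of 5188 CPM beside 6257 CPM in Soy 3.

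Endothelial and apelin genes had a median of 0.75, and of 22 tested 21 were higher by fitted change and 10 lay above Sow (45.5%). APLN, the ligand of the apelin receptor, had 30.4, 35.5 and 29.0 CPM in Sow and 55.9, 68.0 and 57.7 CPM in Soy, with a log2 fold change of 0.94 ± 0.22 (adjusted p = 0.0651) that was 1.05 without Sow 2 and Soy 3. ROBO4, an endothelial guidance receptor, had 26.1, 21.6 and 35.1 CPM against 42.5, 60.2 and 76.8. Both genes were above Sow in all Milk libraries too. The list's median was 0.33 without Soy 3.

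Collagen and matrix genes had a median of 0.77, with 32 of 35 higher by fitted change, but 1 gene above and 1 below Sow without overlap (2.86% each). COL1A1, a chain of type I collagen, had 1607, 1041 and 4538 CPM in Sow and 3295, 3417 and 18556 CPM in Soy, so the groups overlapped and Soy 3 stood apart. Without Soy 3 the median was 0.26. The 16 tested genes of the IGF axis all had a positive fitted change (median 0.48) and 4 lay above Sow (25%). The median was 0.30 without Soy 3 and 0.25 without Sow 2 and Soy 3. IGFBP5 had 79.6, 51.7 and 121 CPM in Sow and 128, 148 and 495 CPM in Soy, the highest in Soy 3, and its log2 fold change of 1.61 was 0.72 without that library.

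BMP and TGF-beta feedback genes had a median of 0.56, with 21 of 27 higher by fitted change, 9 above Sow (33.3%) and 1 below (3.70%). The median was 0.19 without Soy 3 and 0.17 without Sow 2 and Soy 3. SMAD6, an inhibitor of BMP signalling, had 4.57, 4.09 and 5.15 CPM in Sow and 9.73, 14.3 and 40.6 CPM in Soy, a log2 fold change of 2.22 ± 0.51 (adjusted p = 0.0651). Without Sow 2 and Soy 3 its change was 1.29. SMAD7 had 17.4, 13.6 and 18.8 CPM against 28.9, 32.5 and 46.0, and SMURF1, a ubiquitin ligase that works with both, had 16.4, 10.8 and 17.1 CPM against 23.5, 28.1 and 54.5. All 3 inhibitors were also above Sow in the Milk libraries, with 8.87, 30.9 and 16.7 CPM for SMAD6.

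Nearly all genes of the ribosome and of oxidative phosphorylation had a negative fitted change, and many overlapped with Sow. All 61 tested ribosomal protein genes had a negative fitted change, with a median of −1.07, and 35 lay below Sow without overlap (57.4%). RPS13 had 831, 1311 and 832 CPM in Sow and 634, 313 and 245 CPM in Soy, a log2 fold change of −1.32 ± 0.36 (adjusted p = 0.0651), and RPL28 had 1145, 1517 and 972 CPM against 855, 554 and 459. Ribosomal proteins have many near-identical copies in the genome, so single genes of this list are uncertain. As a share of all reads the list made up 7.61%, 9.93% and 6.85% in Sow and 6.73%, 3.47% and 3.08% in Soy. Soy unnumbered was thus near Sow unnumbered and Sow 3, and the Milk libraries lay at 6.30%, 7.04% and 3.21%. Without Soy unnumbered the median was −1.56, and without Sow 2 and Soy 3 it was −0.55.

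Nuclear genes of oxidative phosphorylation had a median of −0.85, and of 62 tested 61 were lower by fitted change and 26 lay below Sow (41.9%). UQCRC2, a core subunit of complex III, had 343, 572 and 289 CPM in Sow and 237, 122 and 99.8 CPM in Soy, a log2 fold change of −1.39 ± 0.35 (adjusted p = 0.0651). NDUFA9, a subunit of complex I, had 138, 214 and 127 CPM against 109, 85.5 and 59.0. The 13 protein genes of the mitochondrial genome did not follow them. Their median was −0.01, and none of the 13 separated the groups in either direction. As a share of all reads they made up 7.32%, 7.13% and 7.31% in Sow and 8.18%, 9.65% and 6.72% in Soy. The median of the nuclear genes was −0.50 without Sow 2 and −0.33 without Sow 2 and Soy 3. Against the same Sow libraries, these nuclear genes had a median of −0.63 in Milk, −1.43 in M + E2 and −0.98 in M + G. Between Soy and Milk their median was −0.17.

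**Figure D4:**
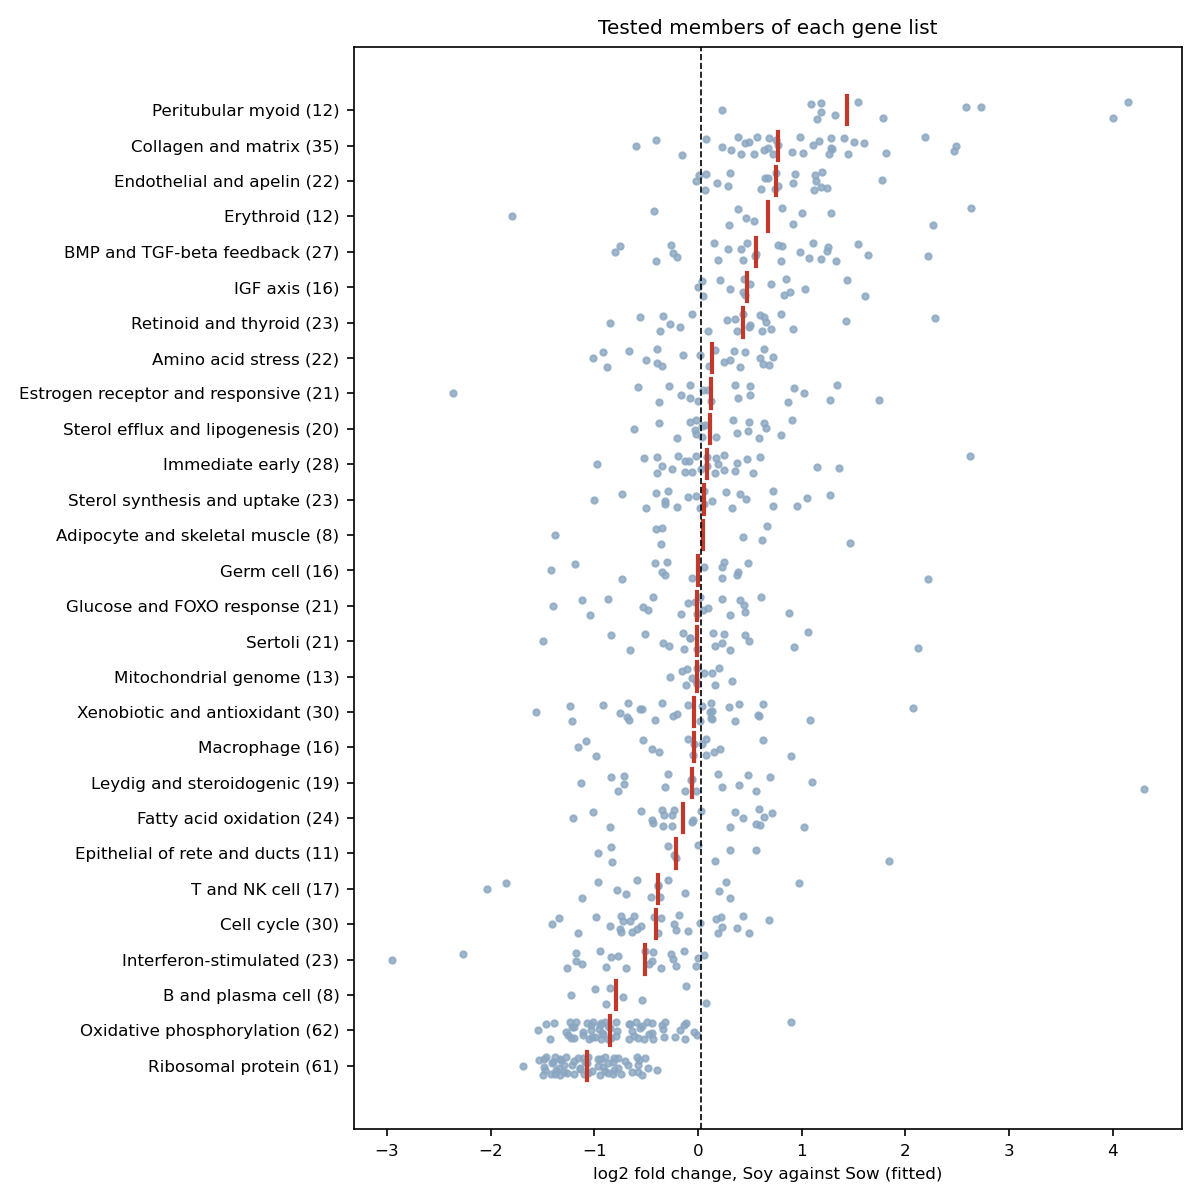
Fitted log2 fold changes (Soy against Sow) of the tested members of 28 gene lists; points are genes, with the number tested in brackets, red bars are list medians and the dashed line is the median of all tested genes (0.03). Peritubular myoid genes have the highest median (1.44) and ribosomal protein genes the lowest (−1.07), and none of these genes was called.

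Most interferon-stimulated genes had lower levels in Soy. Of 23 tested, 22 had a negative fitted change and 13 lay below Sow without overlap (56.5%), with a median of −0.51 that was −0.75 without Sow 2 and Soy 3. Summed over the list, levels were 847, 777 and 929 CPM in Sow and 527, 481 and 430 CPM in Soy, and in Milk 468, 792 and 428 CPM. IFI44L had 69.5, 88.9 and 73.0 CPM in Sow and 45.4, 32.8 and 24.4 CPM in Soy. IFIH1, a sensor of double-stranded RNA, had 16.4, 16.6 and 15.5 CPM against 9.73, 8.66 and 7.86, a log2 fold change of −0.89 ± 0.23 (adjusted p = 0.0651). IFI6 had the smallest p of the list, at −2.26 ± 0.47 with the same adjusted p.

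Cell cycle genes had a median of −0.40. Of 30 tested, 21 were lower by fitted change, 18 lay below Sow (60%) and 3 above (10%). On the other diets the median against Sow was −0.23 in Milk, −0.35 in M + E2 and −0.39 in M + G. CDK1, the mitotic kinase, had 60.7, 101 and 51.0 CPM in Sow and 40.4, 24.2 and 15.8 CPM in Soy, a log2 fold change of −1.41 ± 0.38. AURKB, the mitotic Aurora kinase B, had 37.0, 42.1 and 34.5 CPM against 27.9, 25.6 and 21.9, a change of −0.59 ± 0.16. NUF2, part of the kinetochore, was among the 46 genes of the exact tests, with 27.8, 44.5 and 25.4 CPM against 15.4, 11.1 and 12.2. In the quasi-likelihood test each of these 3 genes had an adjusted p of 0.0651.

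**Figure D5:**
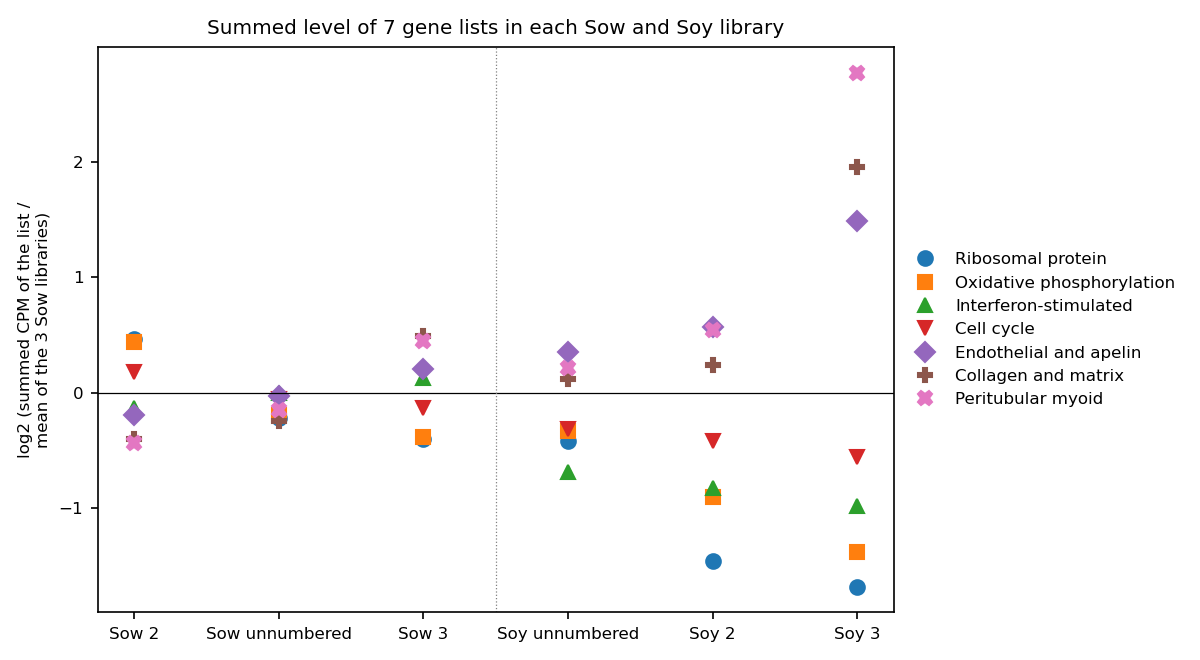
Summed CPM of 7 gene lists in each Sow and Soy library, as log2 of the ratio to the mean of the 3 Sow libraries (left of the dotted line Sow, right Soy). Interferon-stimulated and cell cycle genes lie below all Sow libraries in each Soy library, whereas ribosomal genes of Soy unnumbered lie at the level of Sow 3 and the myoid and collagen sums of Soy 3 stand far above the rest.

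Immune cell lists were small. Of 17 T and NK cell genes 1 lay above and 6 below Sow (5.88% and 35.3%, median −0.39, or −0.64 without Soy unnumbered), of 8 B and plasma cell genes none lay above and 3 below (37.5%, median −0.79), and of 16 macrophage genes 2 lay above and 3 below (12.5% and 18.8%, median −0.04). CD247, the zeta chain of the T cell receptor, had 29.6, 19.4 and 21.0 CPM in Sow and 58.6, 45.3 and 33.4 CPM in Soy, in contrast to GZMH, a granzyme, at 2.56, 5.26 and 2.64 CPM against 1.05, 0.329 and 1.14. JCHAIN, which joins secreted immunoglobulins, had 31.3, 58.9 and 31.7 CPM against 24.8, 15.7 and 11.7. Of 12 erythroid genes 5 lay above Sow (41.7%) and 1 below (8.33%), with a median of 0.67. TFRC, the transferrin receptor and the single member below, had 717, 1213 and 611 CPM in Sow and 372, 224 and 136 CPM in Soy, a log2 fold change of −1.79 ± 0.38 (adjusted p = 0.0651).

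Few sterol genes separated the groups, and those that did lay above Sow. Of 23 genes of sterol synthesis and uptake 13 were higher and 10 lower by fitted change. Above Sow lay 4 (17.4%, near the 16.7% over all genes) and below it none. The median was 0.05, or 0.27 without Sow 2 and −0.15 without Soy unnumbered. INSIG1, a brake on sterol synthesis, had 42.5, 54.3 and 69.4 CPM in Sow and 132, 131 and 82.2 CPM in Soy, a log2 fold change of 1.05 ± 0.25 (adjusted p = 0.0651 in edgeR's quasi-likelihood test). Of 20 genes of sterol efflux and lipogenesis 5 lay above Sow (25%) and none below (median 0.12). Among these SCD, a fatty acid desaturase, had 145, 149 and 179 CPM against 273, 323 and 289. Milk libraries overlapped with Sow at INSIG1 and SCD.

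Genes of fatty acid oxidation (24 tested, median −0.15) had 4 members above and 5 below Sow (16.7% and 20.8%), among them ACADM, an acyl-CoA dehydrogenase, with 195, 247 and 177 CPM in Sow and 139, 118 and 86.0 CPM in Soy. In the glucose and FOXO response list (21 tested, median −0.01) none lay above Sow and 4 below (19.0%). TXNIP, a brake on glucose uptake, had 864, 536 and 786 CPM in Sow and 393, 325 and 343 CPM in Soy, a log2 fold change of −1.04 ± 0.22, and CCNG2 had 37.5, 71.7 and 50.1 CPM against 25.8, 18.4 and 16.3, a change of −1.40 ± 0.29. At all 3 of these genes the Milk libraries lay below all Sow libraries as well.

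The remaining lists held no called gene. Amino acid stress genes (22 tested) had a median of 0.14 with 5 above and 5 below Sow (22.7% each), and PSAT1, of serine synthesis, had 358, 670 and 391 CPM in Sow and 315, 224 and 164 CPM in Soy. Xenobiotic and antioxidant genes (30 tested) had a median of −0.04 with 5 above, GUSB among them, and 5 below (16.7% each). CYP3A29, a cytochrome P450 that oxidizes foreign compounds, had 6.59, 2.77 and 8.39 CPM in Sow and 2.37, 1.97 and 1.71 CPM in Soy. Retinoid and thyroid genes (23 tested) had a median of 0.43, with 5 above and 1 below (21.7% and 4.35%). That median was 0.28 without Sow 2, 0.23 without Soy 3 and 0.094 without both, and RARG, a retinoic acid receptor, had 9.28, 5.70 and 8.87 CPM against 13.0, 15.5 and 36.0. Immediate early genes (28 tested) had a median of 0.09 with none above and 2 below (7.14%), duct epithelium genes (11 tested) one of −0.21 (0.11 without Soy 3) with 1 on either side (9.09% each), and adipocyte and skeletal muscle genes (8 tested) one of 0.04 with 1 on either side (12.5% each). In the last list LPL, lipoprotein lipase, lay below, with 21.1, 38.8 and 23.4 CPM in Sow and 11.8, 8.99 and 11.2 CPM in Soy. The adipocyte marker ADIPOQ, which did not pass the filter, had 1, 1 and 0 reads in Sow and 1, 1 and 27 in Soy.

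Soy and Milk were then compared directly, which tests whether the changes of both formulas against Sow differ. In edgeR's quasi-likelihood test 0 of 15328 genes (0%) passed, with 418 (2.73%) at an unadjusted p under 0.05, 165 higher (1.08%) and 253 lower (1.65%) in Soy. Against M + E2 and M + G, 23 genes (0.15%) and 2 genes (0.013%) passed the same test. ENSSSCG00000018062 had a log2 fold change of 2.84 ± 0.39 between Soy and Milk (adjusted p = 0.0628). By the exact test on the 6 libraries 5 genes passed, named here after their values were seen, and none of them has a symbol in the table. They were ENSSSCG00000018062 (adjusted p = 0.000213), ENSSSCG00000018064, ENSSSCG00000018071, ENSSSCG00000036445 and ENSSSCG00000046140. ENSSSCG00000018064 had 51, 54 and 39 reads in Soy, 23, 49 and 43 in Sow and 13, 3 and 4 in Milk, so that Soy and Sow overlapped and Milk was low. ENSSSCG00000036445 had 2.63, 1.32 and 0.570 CPM in Soy against 7.83, 22.9 and 9.71 in Milk and 9.55, 9.64 and 18.9 in Sow. ENSSSCG00000046140 had 1, 0 and 4 reads in Soy and 170, 14 and 81 in Milk, but only 4 in Sow 2, where the other Sow libraries had 146 and 88.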

How the data were processed

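Testis RNA of male piglets on 5 diets was sequenced with single-end reads. The authors trimmed the reads, mapped them in the CLC Genomics Workbench, first to a curated pig gene library and what remained to the Ensembl annotation of Sscrofa11.1, and deposited raw counts per gene and library. Reads mapped to the curated library may or may not be part of these counts, and no separate values of that library were analysed here. The deposited counts are not normalized, and no column was left unused (0). The table names 16446 genes, 798 more were named from a table of Ensembl symbols, and 13232 are known by identifier only. Positions came from RefSeq Sscrofa11.1 by unique symbol (12234 tested genes). Strand was not stated for the counting, so overlapping genes cannot be separated.

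Tests were run with edgeR 4.0.16 in R 4.3.3 (TMM, filterByExpr with a minimum count of 10, quasi-likelihood F test over all 15 libraries) and DESeq2 1.42.0 as an alternative. Calls needed an adjusted p of 0.05 or less and a 2-fold change, as in the study. The study tested without Sow 2 by edgeR's exact test. The step was tested on simulated data. Those counts were drawn independently for each library, with no library standing apart, so they do not cover the library shifts described above. Depths of 7937385 to 9017628 reads limit low genes, and a gene with 0 reads may be present at up to 3, for counting error only. Sow and Soy numbers share no stated litter or day, and the numbered libraries deviated together with r = −0.029 (number 2) and r = 0.499 (number 3), so no pairing was used.

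Named genes were those called with or without Sow 2, the 10 smallest p in each direction among symbols whose groups did not overlap, up to 2 most expressed and 3 smallest p per list, steroid genes and genes the study's text names for soy, tissue markers, and the largest changes of the exact tests. A list member was counted as above or below Sow where all 3 Soy libraries were. Genes of the exact tests beyond the rule (ISG12(A), FMO1, SPP1, NR1H4, GRB14, TNR, GRIN2A and GRIN2C) were chosen after their values were seen. Some genes that the rule names are not reported here. The comparison, gene lists and named genes were chosen with earlier results of these data known. The alternatives were other library sets, filters, scalings, tests and the replicate number as a block.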

Additional observations from a re-analysis of the deposited data

Results flagged for a closer look

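For 2 named genes the change of Soy against Sow differed from that of M + E2 against Sow, by edgeR's quasi-likelihood test of Soy against M + E2, in which 23 of 15328 genes passed (0.15%). ENSSSCG00000018062 was higher in Soy than in M + E2 by 2.95 ± 0.39 on the log2 scale (adjusted p = 0.0181), at 11.3 to 11.9 CPM in the 3 Soy libraries and 1.45, 1.79 and 1.28 CPM in M + E2. LINGO1 had a log2 difference of −1.75 ± 0.30 (adjusted p = 0.0365), with 13.8, 11.7 and 12.4 CPM in Soy and 48.0, 43.5 and 36.1 CPM in M + E2, and Sow below both at 6.05, 2.04 and 3.00 CPM. The comparisons with Sow share their control libraries.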

How the results depend on the processing

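The number of genes that differed between Soy and Sow, 4 as reported, depended on the processing. With 1 library of these groups left out in turn it ran from 2 to 2498, the highest without Soy unnumbered, and it was 2 without Sow 2, Soy 2, Soy 3 or Sow 3. In alternatives added after the data were seen, it was 1103 without Milk 3 and 1 without Sow 2 and Soy 3 together. Without the count filter it was 27, with at least 10 counts in every library 1, by DESeq2's Wald test 1068, by edgeR's exact test 771 and by that test without Sow 2 54. Calls between Soy and Milk numbered 0 as reported, 5 by the exact test and from 0 to 1 with 1 library left out. The cause of these shifts was not tested.

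The fit with the replicate number as a block used the 13 numbered libraries and gave 2477 genes, against 2260 in the same libraries without the block. The numbers were not taken to pair the samples, since numbered libraries deviated together in 1 of 2 pairs.

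The log2 fold change of CYP19A1 turned to 0.0050 by the exact test without Sow 2 and to 0.10 without Sow 2 and Soy 3. That of ENSSSCG00000018064 lay between −0.11 (without Sow unnumbered) and 0.45 (without Sow 2) with 1 library left out, and was −0.24 with the block. Every other gene reported here kept its direction under the alternatives run. Genes that the rule names but that are not reported here are not covered by that statement. Of the gene values checked, 222 passed the threshold where the reported one had not, and 13 lost it. Depth limits genes with few reads, such as S100A12 in Soy.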
